A study of Homo sapiens with 12 samples.

Results

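The CDK inhibitor genes are the 7 human genes whose proteins bind and block cyclin-dependent kinases: CDKN1A, CDKN1B and CDKN1C of the CIP/KIP family, and CDKN2A, CDKN2B, CDKN2C and CDKN2D of the INK4 family. They were taken by gene name from a table of 58735 genes, and all 7 were found once. All 7 also passed the filter on low counts, as did 16702 genes of the whole table. Transcripts were measured by sequencing of poly(A)-selected RNA in 12 libraries of Beas-2b, a line of human bronchial epithelial cells immortalised with an adenovirus-SV40 hybrid virus. The 4 groups of 3 libraries were knockout (KO) cells in bleomycin, KO cells in control medium, wild type (WT) cells in bleomycin and WT cells in control medium. KO cells were CRISPR clones lacking SLC25A4, which encodes ANT1, the carrier that moves ADP into mitochondria and ATP out of them. Bleomycin, an agent that breaks DNA, was given to induce senescence, at 10 mg/ml for 2 days per the labels. The unit of the dose is printed as labelled and could not be checked. How many KO clones were used was not stated in the labels, so clone and genotype cannot be told apart.

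CIP/KIP proteins (p21 from CDKN1A, p27 from CDKN1B, p57 from CDKN1C) bind cyclin and kinase together and mainly block CDK2 complexes. INK4 proteins (p16 from CDKN2A, p15 from CDKN2B, p18 from CDKN2C, p19 from CDKN2D) bind CDK4 and CDK6 and keep the D cyclins off them. Active CDKs phosphorylate RB1 and its relatives, which frees E2F factors to turn on genes of DNA replication, and the inhibitors hold this step back. CDKN1A is known to be induced after DNA damage, and CDKN2A is a common marker of senescent cells. CDKN2A also encodes ARF, which blocks MDM2, from another first exon. The SV40 large T antigen, the product used to immortalise this line, binds RB1. These statements are background and not results of these libraries.

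Both CDKN2A and CDKN2B lie on the minus strand of chromosome 9 at the INK4 locus, CDKN2A at chr9:21967753-21995301 and CDKN2B at chr9:22002903-22009363, with 7602 bases between them (coordinates as deposited, which match GENCODE 29 on GRCh38). CDKN1A lies at chr6:36676460-36687339 on the plus strand and CDKN1B at chr12:12715058-12722371 on the plus strand. CDKN1C lies at chr11:2883213-2885773 on the minus strand, CDKN2C at chr1:50960745-50974633 on the plus strand and CDKN2D at chr19:10566462-10569059 on the minus strand. The annotation holds 14 transcripts of CDKN2A, and a count per gene does not separate the p16 and ARF transcripts. Of the exon bases of CDKN2A, 7.88% are shared with CDKN2B-AS1 on the opposite strand. Of those of CDKN1A, 4.79% are shared with DINOL, a long non-coding RNA on the opposite strand. CDKN2B lies inside the span of CDKN2B-AS1 and shares 0 exon bases with it. The label text allows for libraries with or without strand information, so reads in the shared bases could belong to either gene. Over all 12 libraries DINOL had 329 counts and CDKN2B-AS1 had 992.

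RefSeq's promoter table (GRCh38.p14) held 9 starts for 6 of the members, and none for CDKN1C. The stretches upstream of the starts of CDKN1A and CDKN2B are shown because these are the members that rose in bleomycin, and that upstream of the ARF start of CDKN2A because CDKN2A lies beside CDKN2B and went the other way. Each runs 5′ to 3′ on the strand of its gene and ends before any annotated untranslated exon of that gene. Capitals mark GC boxes (GGGCGG on either strand), the motif bound by SP1. The stretches are chr6:36678464-36678657 for CDKN1A, chr9:22009364-22009555 for CDKN2B and chr9:21995325-21995574 for CDKN2A.
CDKN1A: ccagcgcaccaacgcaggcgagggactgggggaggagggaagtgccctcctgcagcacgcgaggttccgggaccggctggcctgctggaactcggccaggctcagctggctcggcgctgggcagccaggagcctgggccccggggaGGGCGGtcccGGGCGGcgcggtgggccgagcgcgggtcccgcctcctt
CDKN2B: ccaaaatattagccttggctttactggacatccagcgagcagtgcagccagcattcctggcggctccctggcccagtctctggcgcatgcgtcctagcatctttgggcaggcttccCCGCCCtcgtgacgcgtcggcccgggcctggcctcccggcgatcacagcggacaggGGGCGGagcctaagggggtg
CDKN2A, ARF start: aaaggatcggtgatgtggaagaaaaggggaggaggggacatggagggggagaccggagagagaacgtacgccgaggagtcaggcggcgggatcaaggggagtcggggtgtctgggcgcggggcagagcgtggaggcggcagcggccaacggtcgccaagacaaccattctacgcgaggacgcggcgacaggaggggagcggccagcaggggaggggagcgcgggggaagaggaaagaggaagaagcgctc
In the full 250 bases before its start, CDKN1A had 4 GC boxes, of which 1 pair overlapped. CDKN2B had 2 and the ARF start of CDKN2A had 0, while the p16 start of CDKN2A had 1. CDKN1B had 1, CDKN2D had 2, and the 3 starts of CDKN2C had 0, 5 and 1. Of 35116 such windows over all genes, 42.6% held a GC box. The TATA box TATAAA was in 0 windows of the members and in 10.7% of all windows, on either strand. The core of the CHR element, searched as TTTGAA, was likewise in 0 of the members' windows and in 13.3% of all. An E2F octamer (TTTCGCGC, TTTGGCGC, TTTCCCGC or TTTGCCGC) was in 0 of the members' windows and in 2.79% of all.

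Library totals ran from 15.75 to 21.92 megacounts. SLC25A4 was at 4.60 ± 0.462 CPM (counts per megacount of library, TMM-scaled) in KO bleomycin and 5.62 ± 1.18 in KO control, against 22.0 ± 5.71 in WT bleomycin and 19.2 ± 3.22 in WT control (SD, n = 3 each), and was lower in KO in both media. Of the epithelial keratins, KRT7, KRT8 and KRT18 were above 100 CPM in all 12 libraries and KRT19 ran from 15.5 to 76.3 CPM. KRT5 was at 0.481 CPM or less, and EPCAM and CDH1 did not exceed 2.96 CPM. The leukocyte markers summed to at most 0.638 CPM and the endothelial markers to at most 4.04 CPM. Replicate 2 of KO control stood apart: mitochondrially encoded transcripts took 0.364% of its counts, against 3.86% to 5.13% in the other libraries. Of the 6 fibroblast markers, only COL1A1 and COL1A2 exceeded 1 CPM, and LUM was at 0 in all libraries. Their sum ran from 560 to 3487 CPM within KO control, with the highest value in replicate 2, where COL1A1 was at 3474 CPM. Within WT control the sum ran from 543 to 1203 CPM. The part of these differences in the CDK inhibitor values was not tested. CDK inhibitor results that rest on this library are given with and without it, and those of other genes only for some.

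The levels of the members were compared with each other by the deposited FPKM, which divides by gene length. For CDKN2A that length, 4329 bases, equals its exon bases pooled over 14 annotated transcripts. The transcripts present may be shorter, by a factor that differs between genes. The order of members with close levels and the shares of the sum are therefore approximate. CDKN1A was the most abundant member in bleomycin, at 1346 ± 69.2 FPKM in KO cells and 1516 ± 31.5 FPKM in WT cells (SD, n = 3 each). In bleomycin the order was the same in both genotypes: CDKN1A, CDKN2A, CDKN2B, CDKN1B, CDKN2C, CDKN2D and CDKN1C, and no neighbours in that order overlapped in their ranges. CDKN1A made up 90.5% of the summed FPKM of the 7 genes in KO bleomycin and 15.3% in KO control (18.2% without replicate 2), and 91.8% in WT bleomycin and 12.1% in WT control. CDKN2A led in control medium, at 159 ± 97.0 FPKM in KO control (103 ± 3.50 without replicate 2, n = 2) and 104 ± 2.14 FPKM in WT control. There it made up 45.5% of the sum in KO cells (39.5% without replicate 2) and 42.3% in WT cells. In WT control CDKN2C, CDKN1B, CDKN1A, CDKN2B, CDKN2D and CDKN1C followed in that order. In KO control the ranges of CDKN2C, CDKN1A and CDKN1B overlapped with all libraries. Without replicate 2 they did not, and CDKN1A, CDKN1B and CDKN2C followed CDKN2A in that order. Without CDKN1A, the other members summed to 141 FPKM in KO bleomycin and 284 in KO control (213 without replicate 2), and to 135 in WT bleomycin and 217 in WT control, so the remaining inhibitors were together lower in bleomycin while CDKN1A rose.

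**Figure D1:**
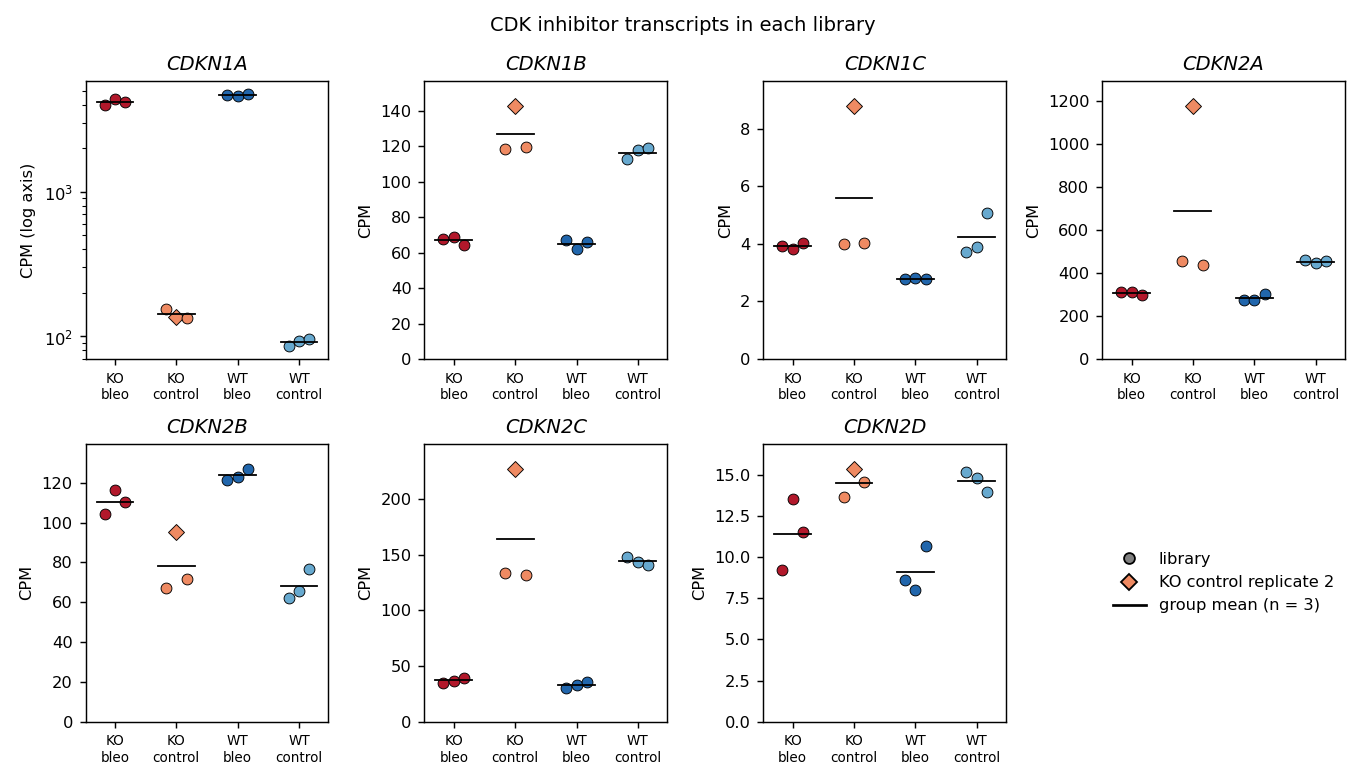
Level of each CDK inhibitor gene in CPM (TMM-scaled) for the 12 libraries in 4 groups, with group means as lines (n = 3) and replicate 2 of KO control as a diamond; the axis of CDKN1A is logarithmic and the others start at 0. CDKN1A is at 3960 CPM or more in every bleomycin library and at 154 CPM or less in every control library, and CDKN2A stands at 1176 CPM in replicate 2 of KO control against at most 460 CPM elsewhere.

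**Figure D2:**
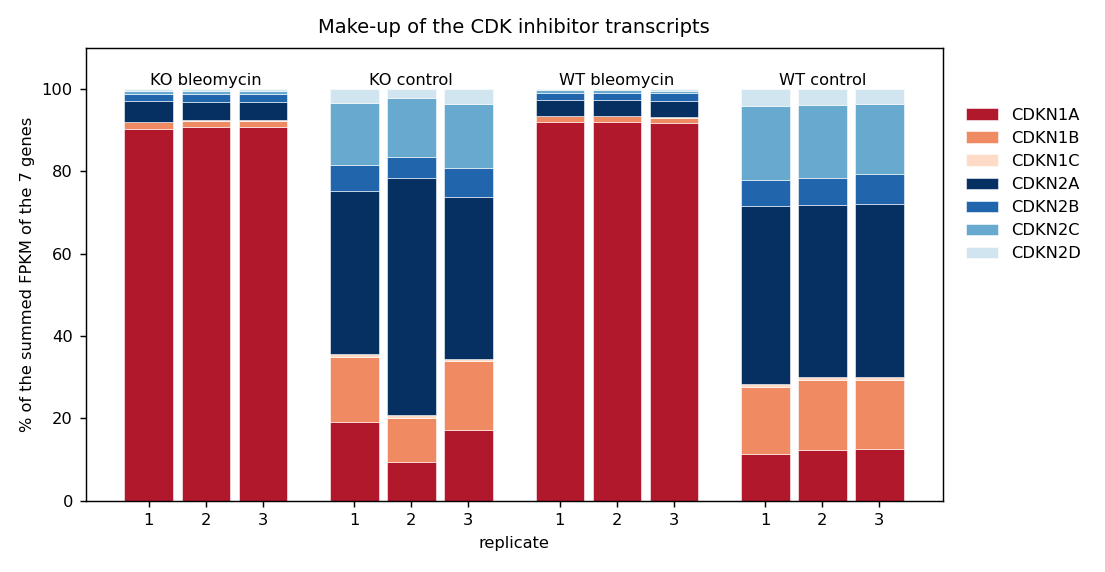
Share of each gene in the summed deposited FPKM of the 7 CDK inhibitor genes, as stacked bars for each library. CDKN1A takes 90.2% to 92.0% in the bleomycin libraries and 9.46% to 19.0% in the control libraries, where CDKN2A takes the largest share.

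Bleomycin was compared with control medium within each genotype. In both genotypes CDKN1A and CDKN2B rose, and CDKN1B and CDKN2C fell. Of the others, CDKN2A was called lower in KO cells and CDKN2D in WT cells. In the other genotype each of them was lower in every bleomycin library than in every control library, but was not called. In KO cells 5 of 7 members were called at an adjusted p under 0.05 (edgeR), where 43.2% of all tested genes were called. Of these 2 were higher, against 22.5% of all genes, and 3 were lower, against 20.7%. In WT cells 5 of 7 were called, against 43.5% of all genes, with 2 higher (23.9% of all genes) and 3 lower (19.6%). When replicate 2 of KO control was left out, 5 of 7 were called in KO cells (48.4% of all genes) and 7 of 7 in WT cells (56.6%). The bleomycin and control libraries did not overlap for 6 of 7 members in KO cells, against 51.3% of all genes, and for 7 of 7 in WT cells, against 61.3%. The members had a median log2 fold change of -0.51 in KO cells and -0.68 in WT cells, while the median over all genes was 0.00 and 0.02. Without replicate 2 of KO control the members' median in KO cells was -0.30. In bulk RNA, fewer cells of a type and less RNA per cell cannot be told apart.

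CDKN1A, which encodes p21, was at 3960, 4348 and 4147 CPM in KO bleomycin, against 154, 136 and 135 CPM in KO control. It was at 4637, 4609 and 4761 CPM in WT bleomycin, against 85.4, 92.5 and 95.8 CPM in WT control. Every bleomycin library lay far above every control library in both genotypes. The log2 fold change was 4.87 (SE 0.11, adjusted p = 1.52e-11) in KO cells and 5.68 (SE 0.11, adjusted p = 4.95e-12) in WT cells, or 29.2-fold and 51.2-fold. By size of change CDKN1A ranked 276 in KO cells and 216 in WT cells among the 16702 tested genes. No other member ranked above 1068.

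CDKN1B, which encodes p27, was at 67.8, 69.1 and 64.6 CPM in KO bleomycin, against 119, 143 and 120 CPM in KO control. It was at 66.9, 62.0 and 66.2 CPM in WT bleomycin, against 113, 118 and 119 CPM in WT control. All bleomycin libraries lay below all control libraries, and the log2 fold change was -0.92 (SE 0.09, adjusted p = 3.13e-06) in KO cells and -0.84 (SE 0.09, adjusted p = 5.68e-06) in WT cells. CDKN1C, the imprinted gene of p57, had few counts, between 49 and 141 per library. It was at 3.94, 3.83 and 4.02 CPM in KO bleomycin, against 3.99, 8.77 and 4.04 CPM in KO control. In WT cells it was at 2.79, 2.81 and 2.78 CPM in bleomycin, against 3.71, 3.90 and 5.08 CPM in control. The KO groups overlapped and the WT groups did not. Neither change was called (log2 fold change -0.51, adjusted p = 0.151, in KO cells and -0.60, adjusted p = 0.102, in WT cells). Without replicate 2 of KO control the KO value was -0.04 (adjusted p = 0.899) and the WT value was called (-0.60, adjusted p = 0.00809).

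CDKN2A was at 314, 312 and 296 CPM in KO bleomycin, against 457, 1176 and 436 CPM in KO control. It was at 274, 273 and 301 CPM in WT bleomycin, against 460, 445 and 455 CPM in WT control. All bleomycin libraries were lower than all control libraries, and replicate 2 of KO control was the highest of the 12. In KO cells the log2 fold change was -1.17 (SE 0.29, adjusted p = 0.00606) with all libraries and -0.54 (SE 0.07, adjusted p = 3.05e-06) without replicate 2. In WT cells it was -0.68 (SE 0.29, adjusted p = 0.0731) with all libraries and -0.69 (SE 0.07, adjusted p = 1.74e-08) without it. The call in WT cells was also made without replicate 1 (adjusted p = 0.0444) or replicate 3 (adjusted p = 0.0383) of KO control, the group that shares its estimate of spread.

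Replicate 2 of KO control had 2.63 times the CDKN2A level of the mean of the other KO control libraries, and 2.81% of tested genes were at least as far from theirs. The ratio was 2.18 for CDKN1C (8.54% of tested genes at least as far), 1.71 for CDKN2C (17.7%) and 1.37 for CDKN2B (40.1%). It was 1.20 for CDKN1B (62.9%), 1.09 for CDKN2D (82.0%) and 0.943 for CDKN1A (86.8%). That library was the highest of all 12 for CDKN1B, CDKN1C, CDKN2A, CDKN2C and CDKN2D. The share of all genes for which it was the highest was not counted. Its low mitochondrial share and high COL1A1 were seen in the same library as these values, and their part was not tested. Within WT control COL1A1 ran from 540 to 1200 CPM, while CDKN2A ran from 445 to 460 CPM.

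CDKN2B, which encodes p15 and is known as a target of TGF-beta signalling, was at 104, 116 and 110 CPM in KO bleomycin, against 67.1, 95.4 and 71.9 CPM in KO control. It was at 122, 123 and 127 CPM in WT bleomycin, against 61.9, 65.7 and 76.4 CPM in WT control. All bleomycin libraries were higher than all control libraries of their genotype. The log2 fold change was 0.50 (SE 0.13, adjusted p = 0.00604) in KO cells, 0.66 without replicate 2 of KO control, and 0.86 (SE 0.13, adjusted p = 9.51e-05) in WT cells. CDKN2B and CDKN2A, which lie next to each other, thus moved in opposite directions in KO cells, where both were called. MTAP, the enzyme gene on the far side of CDKN2A, had a log2 fold change of -0.41 in KO cells and -0.28 in WT cells. The antisense RNA CDKN2B-AS1 was not called in either genotype (0.06 in KO cells and -0.26 in WT cells).

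CDKN2C, which encodes p18, was at 35.0, 36.6 and 39.6 CPM in KO bleomycin, against 134, 227 and 132 CPM in KO control. It was at 30.7, 32.7 and 35.3 CPM in WT bleomycin, against 148, 144 and 141 CPM in WT control. It had the largest fall of the members, with a log2 fold change of -2.15 (SE 0.18, adjusted p = 6.61e-07) in KO cells and -2.13 in WT cells (SE 0.18). The KO value was -1.85 when replicate 2 of KO control was left out. CDKN2D, which encodes p19, was at 9.20, 13.6 and 11.5 CPM in KO bleomycin, against 13.7, 15.4 and 14.6 CPM in KO control. In WT cells it was at 8.62, 8.03 and 10.7 CPM in bleomycin, against 15.2, 14.8 and 13.9 CPM in control. The groups did not overlap in either genotype. Its log2 fold change was -0.34 (adjusted p = 0.0826) in KO cells and -0.68 (adjusted p = 0.00252) in WT cells. Without replicate 2 of KO bleomycin the KO value was called (-0.49, adjusted p = 0.0319). The difference between genotypes was not called, as given with the other interactions.

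**Figure D3:**
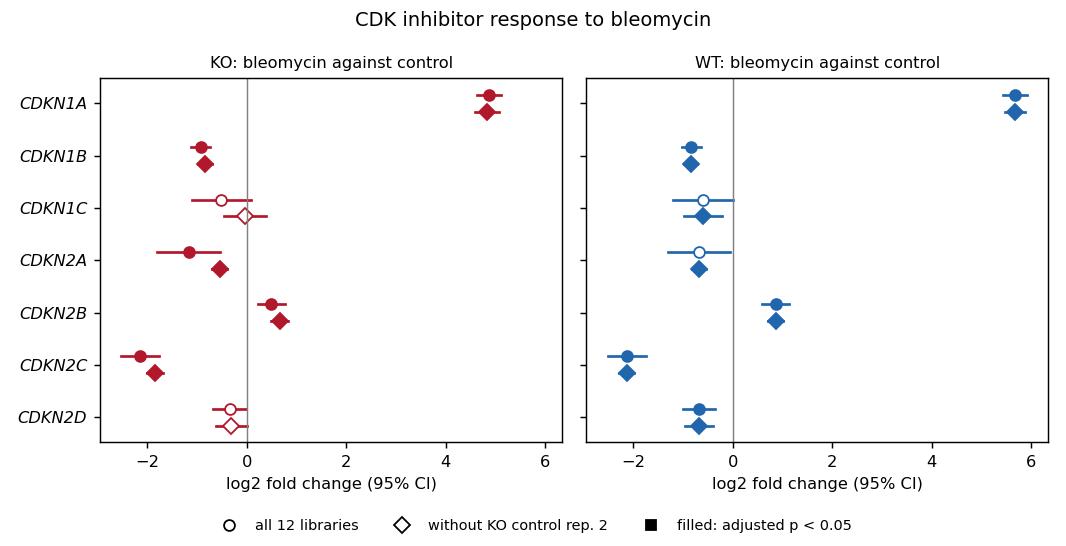
Log2 fold change of bleomycin against control medium with 95% confidence interval for each CDK inhibitor gene, in KO cells (left) and WT cells (right), with all 12 libraries (circles) and without replicate 2 of KO control (diamonds); filled symbols have an adjusted p under 0.05 (edgeR). CDKN1A is at 4.87 in KO cells and 5.68 in WT cells, and the CDKN2A interval narrows without that library.

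KO cells were then compared with WT cells in each medium. In control medium CDKN1A was higher in KO, with libraries at 154, 136 and 135 CPM against 85.4, 92.5 and 95.8 CPM in WT, and the groups did not overlap. The log2 fold change was 0.64 (SE 0.09, adjusted p = 0.0238), or 1.56-fold, and 0.67 (adjusted p = 0.000691) without replicate 2 of KO control. CDKN1A was the 1 member called of 7, where 0.168% of all tested genes were called and 0.108% were called as higher. With that library left out it was again the 1 member called, against 1.02% of all genes. With all 12 libraries it was also the 1 member whose groups did not overlap, against 12.2% of all genes. With replicate 2 of KO control left out, the groups of CDKN2C (lower in KO) did not overlap either, and it was not called (adjusted p = 0.712). That comparison sets 2 libraries against 3, so the 12.2% is not its background. The call did not hold without any one of 9 of the 12 libraries, namely all 3 of WT bleomycin, all 3 of WT control, replicates 1 and 3 of KO control and replicate 3 of KO bleomycin. Over the 12 left out in turn the log2 fold change ran from 0.57 to 0.67 and the adjusted p from 0.000691 to 0.131. CDKN2A was 0.61 higher on the log2 scale (SE 0.29, adjusted p = 0.509) with all libraries and -0.02 (SE 0.07, adjusted p = 0.980) without replicate 2 of KO control. CDKN1C and CDKN2C also changed sign without it, at -0.07 and -0.11. The log2 fold changes of CDKN1B, CDKN2B and CDKN2D were 0.13, 0.20 and -0.01 with all libraries, and 0.04, 0.03 and -0.05 without replicate 2 of KO control.

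In bleomycin 0 of 7 members were called between KO and WT by edgeR, where 0.0479% of all genes were called. At an unadjusted p under 0.05 the count was 0 with edgeR, against 1103 of 16702 genes, and 1 with DESeq2, which called 0. Without replicate 2 of KO control 4 of 7 had an unadjusted p under 0.05, against 2415 of 17204 genes. Of the members 0 were called in that fit, where 159 genes were called higher and 135 lower. CDKN1A, CDKN1C and CDKN2B did not overlap between genotypes, 3 of 7 members against 18.6% of all genes. CDKN1A and CDKN2B were lower in every KO library and CDKN1C was higher in every KO library. CDKN1A had a log2 fold change of -0.17 (95% CI -0.37 to 0.03, adjusted p = 0.845), which does not show that the genotypes were alike. Those of CDKN1C and CDKN2B were 0.49 (adjusted p = 0.867) and -0.17 (adjusted p = 0.952).

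The interaction, the bleomycin response of KO cells minus that of WT cells, was called by edgeR for 0 of 7 members and 0 of 16702 genes (0.00%). At an unadjusted p under 0.05 there were 1 member and 770 genes, and DESeq2 called 1 member, where 0 genes were called higher and 4 lower. That member was CDKN1A in both. Its interaction was -0.81 on the log2 scale (95% CI -1.09 to -0.52, unadjusted p = 3.77e-05, adjusted p = 0.351), the response being 4.87 in KO cells and 5.68 in WT cells. Without replicate 2 of KO control it was -0.84 and was called (adjusted p = 0.00774), where 0.0523% of all genes were called. Its adjusted p was 2.05e-07 with DESeq2 and 0.979 without replicate 3 of WT control, the ends of its range over the alternatives, while its value stayed between -0.74 and -0.84 with any single library removed. The interactions of CDKN2B and CDKN2D were -0.37 (adjusted p = 0.899) and 0.34 (adjusted p = 0.899), and -0.20 and 0.38 without replicate 2 of KO control. That of CDKN2A was -0.48 (adjusted p = 0.899) with all libraries and 0.14 (adjusted p = 0.805) without that one.

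**Figure D4:**
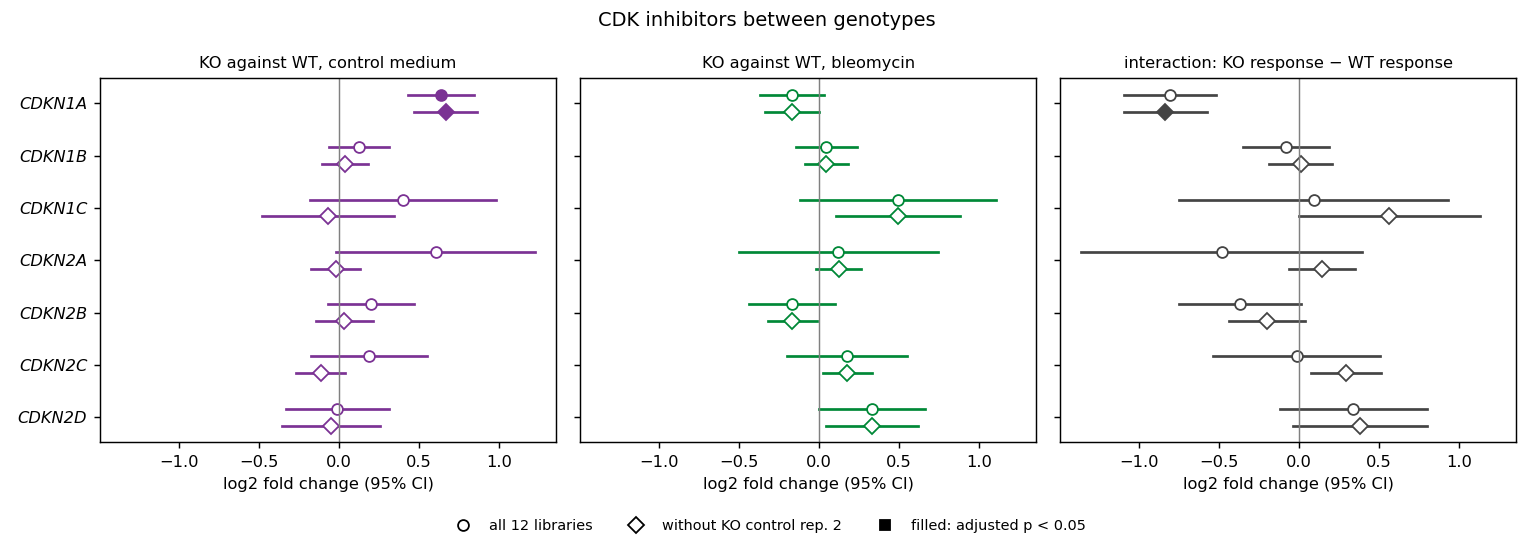
Log2 fold change with 95% confidence interval of KO against WT in control medium (left), in bleomycin (middle) and of the interaction (right) for each CDK inhibitor gene, with all 12 libraries (circles) and without replicate 2 of KO control (diamonds); filled symbols have an adjusted p under 0.05 (edgeR). CDKN1A is at 0.64 in control medium, -0.17 in bleomycin and -0.81 for the interaction.

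The kinases and cyclins that the inhibitors bind were examined next. Of 5 tested genes of the D cyclins and their kinases, 2 rose and 0 fell with bleomycin in KO cells, and 3 rose and 0 fell in WT cells. With replicate 2 of KO control left out, 4 rose in KO cells and 3 in WT cells. Over all tested genes 22.5% rose and 20.7% fell in KO cells and 23.9% rose and 19.6% fell in WT cells. Without replicate 2 of KO control, 4405 of 17204 genes rose and 3914 fell in KO cells. In WT cells 5133 rose and 4610 fell in that fit. The counts of this and the following lists are to be read against the values of their own fit. CCND1, which encodes cyclin D1, averaged 465 ± 71.4 CPM in KO bleomycin and 142 ± 11.9 CPM in KO control, and 425 ± 15.0 CPM in WT bleomycin and 102 ± 30.6 CPM in WT control (SD, n = 3 each). CCND2, which encodes cyclin D2, had 770 counts in KO bleomycin and 15 in KO control, a 49.4-fold ratio (exact 95% interval 29.7 to 88.6, counting error only). In WT cells it had 409 counts in bleomycin and 6 in control, a 73.9-fold ratio (33.6 to 202). CDK6 had a log2 fold change of 0.22 (adjusted p = 0.0740) in KO cells and 0.33 (adjusted p = 0.0112) in WT cells, and without replicate 2 of KO control it was called in KO cells as well (0.25, adjusted p = 0.0187).

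Of 5 tested genes of cyclin E, cyclin A and CDK2, 1 rose and 1 fell in KO cells, and 1 rose and 2 fell in WT cells. For this and the next lists, 22.5% of all tested genes rose and 20.7% fell in KO cells. In WT cells 23.9% rose and 19.6% fell. CCNA2 (cyclin A2) fell by 1.52 on the log2 scale in KO cells and by 1.38 in WT cells, whereas CCNE1 (cyclin E1) rose by 0.57 and 0.49. Over the alternatives, between 0 and 1 gene of this list rose in WT cells. CDK2 had a log2 fold change of -0.21 (adjusted p = 0.0748) in KO cells and -0.41 (adjusted p = 0.00209) in WT cells, and without replicate 2 of KO control it was called in KO cells too (-0.30, adjusted p = 0.00119). Of the 4 genes of cyclin B and CDK1, which drive entry into mitosis, 3 fell in each genotype. CCNB1 had log2 fold changes of -2.49 in KO cells and -2.58 in WT cells, CCNB2 of -1.44 and -1.74, and CDK1 of -0.83 and -0.77. The KO value of CCNB2 was -1.68 without replicate 2 of KO control. Of 6 genes of the CDK-activating kinase and the CDC25 phosphatases, which activate CDKs, 0 rose and 3 fell in KO cells and 0 rose and 2 fell in WT cells. CDC25B was at -1.47 and -1.38 and CDC25C at -1.26 and -1.43 in KO and WT cells. The KO value of CDC25B was -1.15 without replicate 2 of KO control. CDC25A was called in KO cells (-0.36, adjusted p = 0.0260, and -0.20, adjusted p = 0.0473, without replicate 2 of KO control), and was at -0.11 (adjusted p = 0.486) in WT cells.

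**Figure D5:**
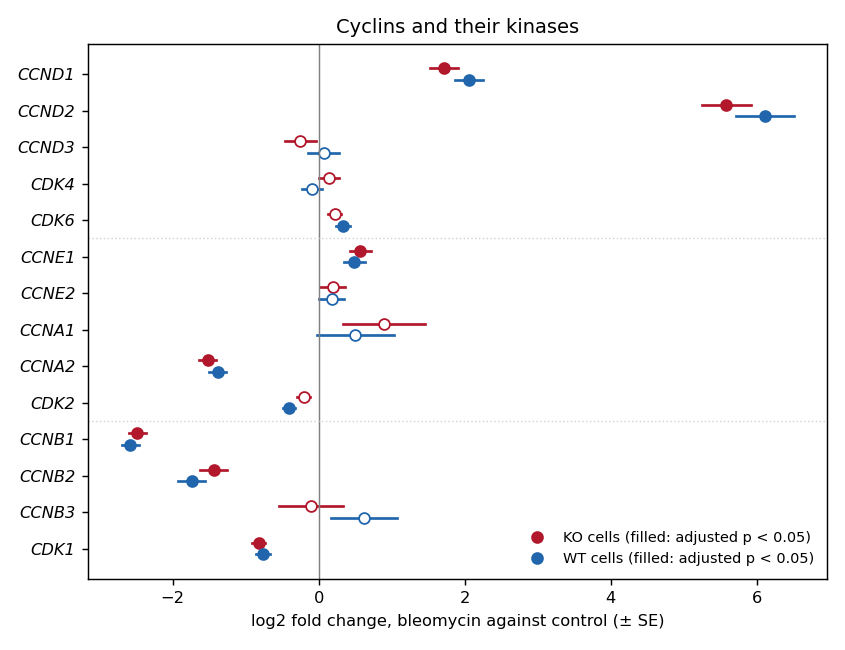
Log2 fold change of bleomycin against control medium (± SE) for cyclins and the kinases they bind, in KO cells (red) and WT cells (blue), with filled symbols for an adjusted p under 0.05 (edgeR). CCND1 and CCND2 are to the right of 0 and CCNA2, CCNB1, CCNB2 and CDK1 to the left of 0 in both genotypes.

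Of 14 tested turnover genes of the ubiquitin ligases, which act on the inhibitor proteins and cyclins, 3 rose and 6 fell in each genotype, where 22.5% of all genes rose and 20.7% fell in KO cells and 23.9% rose and 19.6% fell in WT cells. When replicate 2 of KO control was left out, 8 fell in WT cells, where 4610 of 17204 tested genes fell. SKP2, which marks p27 for breakdown, was at -1.27 in KO cells and -1.28 in WT cells, and CDC20 at -1.59 and -1.96. FBXW7, which marks cyclin E, rose by 1.57 in KO cells and by 1.82 in WT cells on the log2 scale. Of the 3 pocket proteins, which the kinases phosphorylate, 2 fell in KO cells (RBL1 at -0.28 and RBL2 at -0.22), and in WT cells 1 rose (RB1 at 0.20) and 1 fell (RBL1 at -0.31). These calls were not stable. Over the alternatives, between 0 and 2 fell in KO cells, and in WT cells between 0 and 1 rose and between 0 and 1 fell.

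Of 30 transcription factors and repressors known for CDK inhibitor genes, 6 rose and 9 fell in KO cells, and 7 rose and 9 fell in WT cells. The number that rose was near the shares of 22.5% and 23.9% over all genes. The number that fell was above the shares of 20.7% and 19.6%, a difference that was not tested. Without replicate 2 of KO control 5 rose and 13 fell in KO cells, where 4405 and 3914 of 17204 genes did. In WT cells 8 rose and 13 fell in that fit, where 5133 and 4610 genes did. MDM2, a ubiquitin ligase, averaged 2022 ± 120 CPM in KO bleomycin and 105 ± 4.50 CPM in KO control, and 2377 ± 154 CPM in WT bleomycin and 80.1 ± 2.25 CPM in WT control (SD, n = 3 each). TP73, a transcription factor, rose by 2.92 on the log2 scale in KO cells and by 2.87 in WT cells, and TBX3, a repressor, by 1.46 and 1.74. MYC, a repressor of CDKN1A and CDKN2B, was at -0.71 in KO cells and -1.01 in WT cells.

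Genes that share the CDKN name or bind the inhibitors but belong to neither family gave 3 higher and 2 lower of 9 in KO cells and 2 higher and 2 lower in WT cells. The number lower was 1 or 2 in each genotype over the alternatives, which is near the share of all genes (20.7% in KO cells and 19.6% in WT cells). CDKN3, a phosphatase of CDKs, was at -0.997 in KO cells and -1.36 in WT cells, and TSPYL2 was at 0.70 and 0.69. CABLES2 rose by 0.62 in KO cells, and CDKN2AIP by 0.46 in WT cells. Of 25 named neighbours, 19 were tested, and 5 rose and 8 fell in each genotype. Over all tested genes 22.5% rose and 20.7% fell in KO cells, and 23.9% rose and 19.6% fell in WT cells. Without replicate 2 of KO control 20 neighbours were tested. Of these 6 rose and 9 fell in KO cells, where 4405 and 3914 of 17204 genes did. In WT cells 6 rose and 8 fell, where 5133 and 4610 genes did. DINOL, the RNA that overlaps CDKN1A, had 147 counts in KO bleomycin and 4 in KO control, a 35.3-fold ratio (exact 95% interval 13.5 to 131, counting error only). In WT cells it had 176 counts in bleomycin and 2 in control, a 95.4-fold ratio (26.0 to 794). SRSF3, the nearest tested gene below CDKN1A, had a log2 fold change of -1.12 in KO cells and -0.75 in WT cells. In replicate 2 of KO control SRSF3 was at 768 CPM, against a mean of 381 CPM in the other KO control libraries. RAB44, the nearest above CDKN1A, had 45 counts in KO bleomycin and 6 in KO control, and 72 in WT bleomycin and 4 in WT control. KRI1 and SLC44A2, on the sides of CDKN2D, were lower in bleomycin in both genotypes, as were APOLD1, beside CDKN1B, and FAF1, beside CDKN2C.

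Between KO and WT, 0 of the 95 tested genes of these lists were called by edgeR in control medium, and the same held in bleomycin and for the interaction. At an unadjusted p under 0.05 there were 12, 9 and 5 genes, against 1661, 1103 and 770 of all 16702 tested genes. DESeq2 called 2 (MDM2 and CDK6), 2 (RB1 and CCND2) and 1 (MDM2). Over all genes DESeq2 called 124 higher and 51 lower in control medium, 32 and 52 in bleomycin, and 0 and 4 for the interaction. MDM2 had a log2 fold change of 0.39 (adjusted p = 0.135) in control medium and an interaction of -0.62 (adjusted p = 0.780). With replicate 2 of KO control left out these were 0.40 (adjusted p = 0.0314) and -0.63 (adjusted p = 0.0502). In that fit 2 of 96 list genes were called in control medium, MDM2 and CDC25B (-0.40, adjusted p = 0.0224), where 1.02% of all genes were called. In bleomycin 4 were called, namely CCND2 (0.98, adjusted p = 0.00431), PHLDA2 (0.33, adjusted p = 0.0377), KLF6 (0.26, adjusted p = 0.0409) and RB1 (-0.24, adjusted p = 0.0483). Over all 17204 genes of that fit 159 were called higher and 135 lower in bleomycin, against 1 and 7 with all 12 libraries. For the interaction 0 list genes were called, against 0.0523% of all genes. With all libraries, CCND1 was at 0.47 (adjusted p = 0.463), CCNA2 at 0.22 (adjusted p = 0.528), CCNB1 at 0.03 (adjusted p = 0.920) and DDB1 at 0.02 (adjusted p = 0.926) for KO against WT in control medium.

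For each member, the 3 protein-coding genes with the most similar pattern were found among 13466 genes, by the root mean square difference of gene-centred log2 CPM over the 12 libraries. For CDKN1A they were SPATA18 (0.14), ALOX5 (0.18) and CYFIP2 (0.20), and the same 3 genes came first without replicate 2 of KO control. For CDKN2C they were ANP32E (0.14), TNFAIP2 (0.16) and MXD3 (0.16), and without that library DEPDC1, AURKA and CDC20. For CDKN2A they were KIAA2013, SIVA1 and LRRC45, and without that library H3F3A, DAXX and HNRNPD. The remaining nearest genes were NCAPG2, SSX2IP and B4GALT5 for CDKN1B, SSBP4, FBXL16 and DOK1 for CDKN1C, SOX4, PPP4R3A and TANGO2 for CDKN2B, and POMGNT2, ACADS and RAC1 for CDKN2D. These depended on replicate 2 of KO control: without it none of the 3 genes of CDKN1B was among its nearest, and SSBP4, SOX4 and ACADS were the ones still among the nearest 3 of CDKN1C, CDKN2B and CDKN2D.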

How the data were processed

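Poly(A)-selected RNA of 12 Beas-2b libraries was sequenced, and the submitters' processing notes name HISAT2 2.0.5 and featureCounts 1.5.0-p3. The authors deposited raw counts per gene and FPKM values for 58735 genes, with a deposited gene length in bases. The build and the strand setting are not given in the sources used here. Positions of 58690 genes equal those of GENCODE 29 on GRCh38. Per the file values, each deposited FPKM is the count over gene length and over a library factor of 0.963 to 1.05 times the library total.

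Counts were filtered with filterByExpr, TMM-scaled and tested with edgeR 4.0.16 in R 4.3.3 (robust quasi-likelihood fit of 12 libraries and 4 group means, tested on simulated data). P-values were adjusted by Benjamini-Hochberg over 16702 genes, with a threshold of 0.05. SE is the absolute log2 fold change over the square root of F, and 95% CIs come from it. CPM uses TMM-scaled library sizes. Alternatives were DESeq2 1.42.0 (size factors, and its Wald test), limma 3.58.1 on log2(FPKM + 1) and log2(FPKM + 0.1), no filter, no robust estimation, only the groups compared, a replicate block, and each library left out in turn.

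The nearest tested gene on each side, overlapping genes and the 3 genes of most similar pattern were also taken. The members and lists were chosen with earlier results of these data known. The 7 members are always named. Of each list, those 3 called members whose adjusted p was lowest were named, or, for KO against WT, where none passed, some of the members of highest level. MYC, members named for not passing and those called only under an alternative were chosen after their values were seen. Some list members are not reported here. Promoter sequences are from RefSeq's GRCh38.p14 table. The replicates' separate cultures are not described, so p-values measure the spread between these libraries. Whether same-numbered replicates share anything is not given. Correlations of the deviations of same-numbered libraries ran from -0.128 to 0.109 over 18 pairs. Those of other pairs ran from -0.116 to 0.203 over 36. With deviations taken within groups of 3, these cannot settle whether the replicates were paired.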

Additional observations from a re-analysis of the deposited data

How the results depend on the processing

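Bleomycin changes of CDKN1A, CDKN1B, CDKN2B and CDKN2C kept their direction and call under all alternatives run, as did those of CDKN2A in KO cells and CDKN2D in WT cells. With only the 2 groups compared, 5 members fell in WT cells. For KO against WT in control medium, 0 members were called with only the 2 groups compared, with limma at either pseudocount and with the replicate block, where CDKN1A was at 0.64 (adjusted p = 0.0745). The interaction was called for 1 member (lower) with DESeq2 and with no filter on low counts. The replicate block ended no other call of a member.

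Over all genes in control medium, KO was higher for 124 genes and lower for 51 with DESeq2, 211 and 110 with no filter, 7 and 6 with limma at either pseudocount, 0 and 0 with only the 2 groups compared, and 7 and 4 with the replicate block. In bleomycin these were 32 and 52 with DESeq2, 33 and 48 with no filter, and 163 and 153 with only the 2 groups compared; the higher genes were 2 with limma on log2(FPKM + 1), and the lower ones 21 there, 4 on log2(FPKM + 0.1) and 3 with the replicate block. The interaction had 4 lower genes with DESeq2, and 1 higher and 12 lower with no filter. The cause was not tested.

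Leaving out each library in turn gave 3 to 5 members lower in WT cells, 0 to 1 member higher in KO control and 0 to 1 member with a lower interaction. Over all genes, 0 to 116 were higher and 0 to 59 lower in KO in control medium, 1 to 159 higher and 1 to 135 lower in bleomycin, and 0 to 9 had a lower interaction. The log2 fold change of KO against WT in control medium ran from -0.0704 to 0.592 for CDKN1C, -0.0207 to 0.849 for CDKN2A, -0.115 to 0.325 for CDKN2C and -0.0499 to 0.0324 for CDKN2D. The interaction ran from -0.125 to 0.0103 for CDKN1B, -0.10 to 0.56 for CDKN1C, -0.73 to 0.14 for CDKN2A and -0.15 to 0.29 for CDKN2C. That of CDKN2C was 0.0297 and 0.0182 with limma at pseudocounts of 0.1 and 1, 0.00835 with no filter and 0.00936 with the replicate block. CDKN1C, with at most 141 counts in a library, was the member most limited by depth.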
